A study of Mus musculus with 6 samples.

Results

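The serpins are a superfamily of proteins that share one fold, and most of its members inhibit serine proteases. The genes described here are the mouse Serpin genes that had at least 10 reads in total over 6 RNA-seq libraries of liver tumours. They were found by symbol, as Serpin followed by a clade letter and a digit, which gave 42 members of 68 such genes listed and 39179 genes in all. Of the other Serpin genes, 13 had 0 reads and 13 had 1 to 9 reads. Serpina3d-ps, with 12 reads, lay just inside the limit and Serpinb9e, with 9 reads, just outside it.

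The tumours were raised in wild-type C57BL/6 mice, whose sex and age the labels do not give. Transposable elements were brought into hepatocytes by hydrodynamic injection, a fast, large-volume injection into a vein. Both groups received Myc. The Myc/NrasG12V group, with 3 libraries, also received NrasG12V, a mutant of the GTPase Nras that stays switched on, and the Myc/Akt1 group, with 3 libraries, also received Akt1, a kinase downstream of PI3K. The labels name no promoter of the transgenes and do not say that replicates are different mice, so p-values measure only the spread between these samples, which may be technical. No library of normal liver was analysed here, so each value sets one kind of tumour beside the other. The libraries held 17881282 to 27865094 reads, and values are CPM, the reads of a gene scaled to the same total in every library. At these depths 3 reads, the limit that a count of 0 allows, came to 0.108 to 0.168 CPM, which covers counting error only. Nras was at 155 to 199.8 CPM in Myc/NrasG12V and 52.1 to 60.9 CPM in Myc/Akt1, and Akt1 was at 52.9 to 87.1 CPM in Myc/NrasG12V and 246 to 314 CPM in Myc/Akt1, so both delivered transcripts were high where the labels place them. All 6 hepatocyte markers examined were expressed, with a summed level, mostly Alb, of 112837 to 150412 CPM in Myc/NrasG12V and 42787 to 54238 CPM in Myc/Akt1. Of these 6 markers only Apoa1 was called, toward Myc/NrasG12V. Over the alternatives described below, 1 to 3 of the 6 were called in that direction and 0 in the other. Alb was not called, but its groups did not overlap, at 90716 to 123707 CPM in Myc/NrasG12V and 29894 to 38466 CPM in Myc/Akt1. The means of Ttr and Apob were lower in Myc/NrasG12V.

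A serpin acts as bait. The protease cuts an exposed loop of the inhibitor, the serpin then changes its shape, and the protease stays bound to it in an inactive form. The liver secretes many clade A members and the plasma inhibitors of clades C, D, F and G, which hold in check the proteases of coagulation, fibrinolysis, complement and inflammatory cells. Clade B serpins mostly stay inside cells and guard them against stray proteases, and some serpins, such as the hormone carriers Serpina6 and Serpina7 and the collagen chaperone Serpinh1, inhibit no protease. Humans have a single SERPINA1 gene for alpha-1-antitrypsin, the main plasma inhibitor of neutrophil elastase, and a single SERPINA3 gene, whereas in mice both have expanded into families of neighbouring genes.

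The mouse Serpina1 paralogs, Serpina1a to Serpina1e, lay within one stretch of chromosome 12, and the DNA just before their RefSeq transcription starts was nearly the same in all 5. The windows are shown because these genes carried most of the serpin reads in each Myc/NrasG12V library, though not in the Myc/Akt1 libraries, and differed widely in how far apart the 2 groups lay. Each runs 5′ to 3′ on the minus strand, in RefSeq's GRCm38.p6, and capitals mark the positions at which the 5 paralogs are not all alike.
Serpina1a, chr12:103863629-103863740: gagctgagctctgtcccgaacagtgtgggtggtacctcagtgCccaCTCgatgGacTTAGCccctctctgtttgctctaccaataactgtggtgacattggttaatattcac
Serpina1b, chr12:103738204-103738315: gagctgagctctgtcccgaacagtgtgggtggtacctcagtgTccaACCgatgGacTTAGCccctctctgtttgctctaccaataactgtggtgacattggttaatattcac
Serpina1c, chr12:103904966-103905077: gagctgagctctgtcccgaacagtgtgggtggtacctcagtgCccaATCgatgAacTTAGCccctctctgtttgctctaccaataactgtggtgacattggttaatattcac
Serpina1d, chr12:103773638-103773749: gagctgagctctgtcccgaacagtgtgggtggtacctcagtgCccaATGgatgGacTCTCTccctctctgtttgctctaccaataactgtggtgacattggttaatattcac
Serpina1e, chr12:103956964-103957075: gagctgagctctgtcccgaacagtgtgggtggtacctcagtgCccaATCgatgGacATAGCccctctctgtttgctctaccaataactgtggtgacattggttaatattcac
Over these 112 bases 102 positions were the same in all 5 paralogs and 10 were not. Any 2 paralogs differed at 2 to 7 positions, an identity of 93.8% to 98.2%. Serpina1e differed from Serpina1a at 2 positions and from Serpina1c at 2, and Serpina1d stood furthest from the rest. The windows end 9 bases before the RefSeq start of Serpina1a, 14 before that of Serpina1b, 15 before that of Serpina1c, 4 before that of Serpina1d and 66 before that of Serpina1e. For Serpina1b and Serpina1e, the GENCODE gene spans given with the values below reach further upstream than the RefSeq start, so that their windows lie inside those spans, and which start was used in these tumours was not measured. The sequence is given as a description, and nothing about how these genes are switched on was measured.

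The comparison asks how serpin mRNA differed between tumours made with Myc and NrasG12V and tumours made with Myc and Akt1. The members together took 5.11, 4.70 and 7.59% of all reads in Myc/NrasG12V libraries 1, 2 and 3, against 0.803, 1.009 and 1.28% in Myc/Akt1 libraries 1, 2 and 3, a 5.62-fold higher mean. The excess lay in the Serpina1 and Serpina3 families: the other 26 members summed to 5691 ± 1462 CPM in Myc/NrasG12V and 4102 ± 523 CPM in Myc/Akt1 (SD, n = 3 each, as for all later values given as mean ± SD), and there the groups overlapped, with Myc/NrasG12V library 3 below 1 Myc/Akt1 library. Of the 42 members, 33 passed the filter on low values and were tested with limma on log2(CPM + 1), adjusted by Benjamini-Hochberg over 14365 genes. A gene is called where its adjusted p was under 0.05, and log2 differences are Myc/NrasG12V minus Myc/Akt1. There were 16 members called higher in Myc/NrasG12V, where 10% of all tested genes were, and 7 called higher in Myc/Akt1, where 29.5% of all tested genes were. With TMM, median-of-ratios or upper-quartile scaling, 16.2% to 17.7% of all tested genes were called higher in Myc/NrasG12V and 16.3% to 17.9% higher in Myc/Akt1, beside 18 to 19 members and 5 members. The 2 groups did not overlap for 23 of the 33, against 52.7% of all tested genes. Their median log2 difference was 0.84, against -0.26 over all tested genes, and with 3 other scalings the median of all genes lay between 0.00 and 0.05. In clade A, 13 of 19 tested members were called higher in Myc/NrasG12V, with 3 called higher in Myc/Akt1, and in clade B the counts were 1 of 5, with 2 called higher in Myc/Akt1. Since these are bulk tumours, fewer cells of a type and less RNA per cell cannot be told apart.

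**Figure D1:**
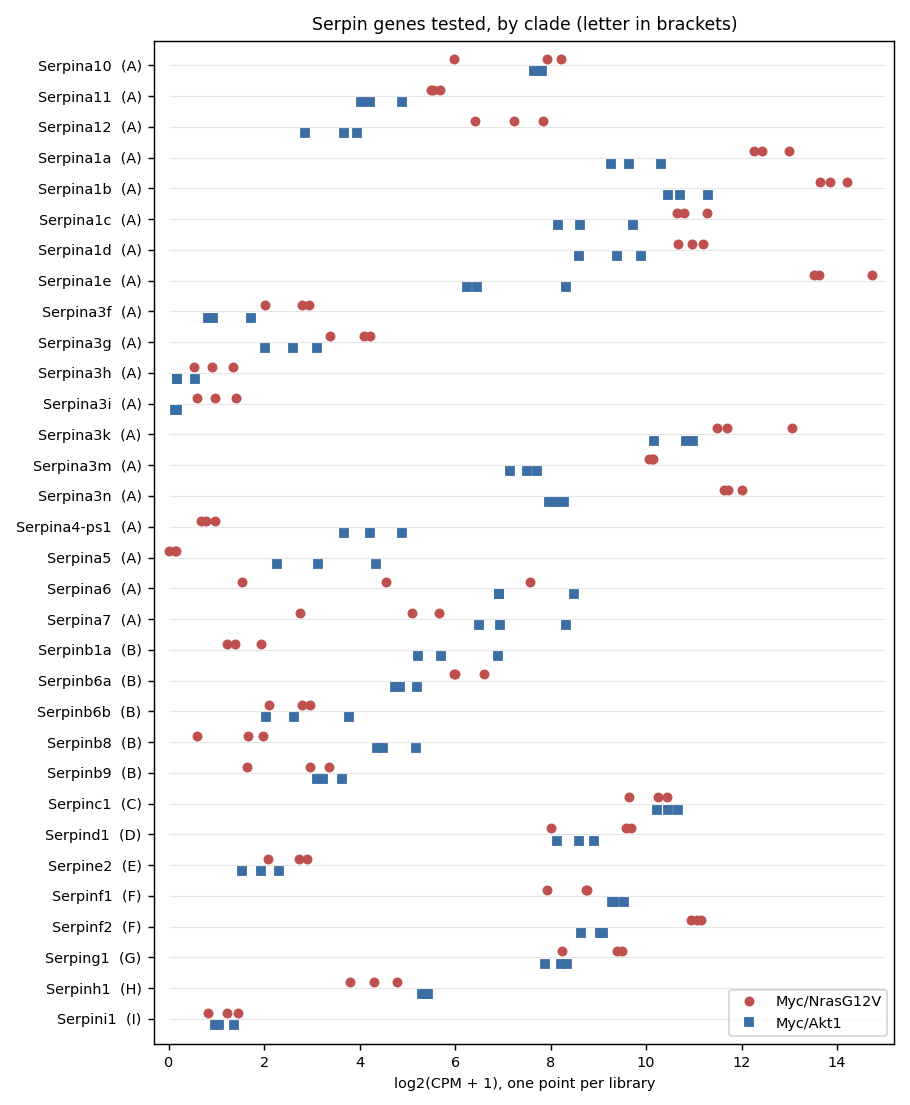
Level of 32 of the 33 tested Serpin genes as log2(CPM + 1), one point per library, with the 3 Myc/NrasG12V libraries as circles above the 3 Myc/Akt1 libraries as squares. Serpina1e shows the widest separation of the Serpina1 genes, and Serpina6, Serpina7 and Serpina10 show 1 Myc/NrasG12V library well below the rest.

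Alpha-1-antitrypsin is a hepatocyte product and among the most abundant proteins of plasma. The 5 Serpina1 genes together were at 36605, 32589 and 59069 CPM in Myc/NrasG12V libraries 1, 2 and 3, against 2769, 3616 and 5898 CPM in Myc/Akt1 libraries 1, 2 and 3. The lowest Myc/NrasG12V library thus lay well above the highest Myc/Akt1 library, and the mean was 10.4-fold higher. Alb, which encodes albumin, the main plasma protein made by hepatocytes, was at 123707, 118151 and 90716 CPM in Myc/NrasG12V, against 29894, 32330.3 and 38466 CPM in Myc/Akt1, a 3.30-fold higher mean that the test did not call (log2 difference 1.72 ± 0.95 SE, limma adjusted p = 0.184). The groups did not overlap for Alb. For every gene the fit draws the error partly from other genes of like level, so this SE is not the spread of Alb alone. Relative to Alb in the same library, the Serpina1 sum was 3.42-fold higher in Myc/NrasG12V, at 0.296, 0.276 and 0.651 times the Alb level against 0.0926, 0.112 and 0.153 times in Myc/Akt1. On that scale the sum of all members was 1.80-fold higher in Myc/NrasG12V, and that of Serpina1a to Serpina1d 2.09-fold higher. The groups did not overlap for either. The Serpina3 sum and the sum of the members outside both families did not keep such a difference. The Serpina3 sum was 1.44-fold higher in Myc/NrasG12V, with groups that overlapped. The sum of the 26 members outside both families was 2.41-fold higher in Myc/Akt1, at a mean of 0.122 times the Alb level against 0.0508 times in Myc/NrasG12V.

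Serpina1e (ENSMUSG00000072849, chromosome 12, 103946931 to 103958975, GRCm38) had 12674, 11708 and 27233 CPM in Myc/NrasG12V libraries 1, 2 and 3, against 87.3, 75.5 and 319 CPM in Myc/Akt1 libraries 1, 2 and 3. Every Myc/NrasG12V library lay far above every Myc/Akt1 library, and Myc/NrasG12V library 3 and Myc/Akt1 library 3 each stood well above the other libraries of their group. The mean was 107-fold higher in Myc/NrasG12V (log2 difference 6.94 ± 0.56 SE, limma adjusted p = 1.03e-04), the largest difference of the 33 tested members, and 211-fold higher without Myc/Akt1 library 3. Serpina1b (ENSMUSG00000071178, chromosome 12, 103728156 to 103830373) was the most abundant paralog in Myc/Akt1 and had 14696, 12723 and 18880.4 CPM in Myc/NrasG12V libraries 1, 2 and 3, against 1399.5, 1677 and 2524 CPM in Myc/Akt1 libraries 1, 2 and 3. Its mean was 8.27-fold higher in Myc/NrasG12V (log2 difference 3.07 ± 0.39 SE, limma adjusted p = 6.11e-04). Serpina1a (ENSMUSG00000066366, chromosome 12, 103853589 to 103863562) had 5469.6, 4923 and 8166 CPM in Myc/NrasG12V libraries 1, 2 and 3, against 614, 800.2 and 1268 CPM in Myc/Akt1 libraries 1, 2 and 3. The groups were again apart, by a 6.92-fold difference of the means (log2 difference 2.82 ± 0.36 SE, limma adjusted p = 6.01e-04).

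The remaining Serpina1 paralogs differed less. Serpina1c (ENSMUSG00000079015, chromosome 12, 103894926 to 103904887) had 1764, 1603 and 2461 CPM in Myc/NrasG12V libraries 1, 2 and 3, against 285, 389 and 841 CPM in Myc/Akt1 libraries 1, 2 and 3, which is 3.85-fold higher in Myc/NrasG12V (log2 difference 2.07 ± 0.39 SE, limma adjusted p = 0.00378). Serpina1d (ENSMUSG00000071177, chromosome 12, 103763594 to 103773592) had 2001, 1632 and 2328 CPM in Myc/NrasG12V libraries 1, 2 and 3, against 383, 674 and 946 CPM in Myc/Akt1 libraries 1, 2 and 3, 2.98-fold higher in Myc/NrasG12V (log2 difference 1.65 ± 0.34 SE, limma adjusted p = 0.00587). All 5 paralogs were therefore called in the same direction, with groups that did not overlap. The order of their levels changed between the groups: per kilobase of exon, Serpina1e was the highest member of all in Myc/NrasG12V, at 10640.1 CPM per kilobase, and the lowest of the 5 paralogs in Myc/Akt1, at 99.4 CPM per kilobase.

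The mix within the family shows the same thing as shares. Serpina1e gave 34.6, 35.9 and 46.1% of the Serpina1 CPM in Myc/NrasG12V libraries 1, 2 and 3, against 3.15, 2.09 and 5.41% in Myc/Akt1 libraries 1, 2 and 3. Serpina1b gave 40.1, 39.0 and 31.96% in Myc/NrasG12V, against 50.5, 46.4 and 42.8% in Myc/Akt1. The share of Serpina1e was higher in every Myc/NrasG12V library, while the share of each of the other 4 paralogs had a lower mean in Myc/NrasG12V. Without Serpina1e, the sum of the other 4 was 6.49-fold higher in Myc/NrasG12V. How reads of near-identical copies were assigned is not given in the sources used here, so the split among the paralogs is uncertain. Of all 75-base windows of its transcripts, the length of a read, 80.3% matched no other gene for Serpina1e and 81.0% for Serpina1b, but only 62.9% for Serpina1d, 50.7% for Serpina1a and 33.9% for Serpina1c. Each paralog shared windows with 5 other genes, which is more than the other 4 summed here. The family sum does not depend on the split within the family so long as shared reads were kept. That includes reads shared with a gene outside the sum, and neither was tested.

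**Figure D2:**
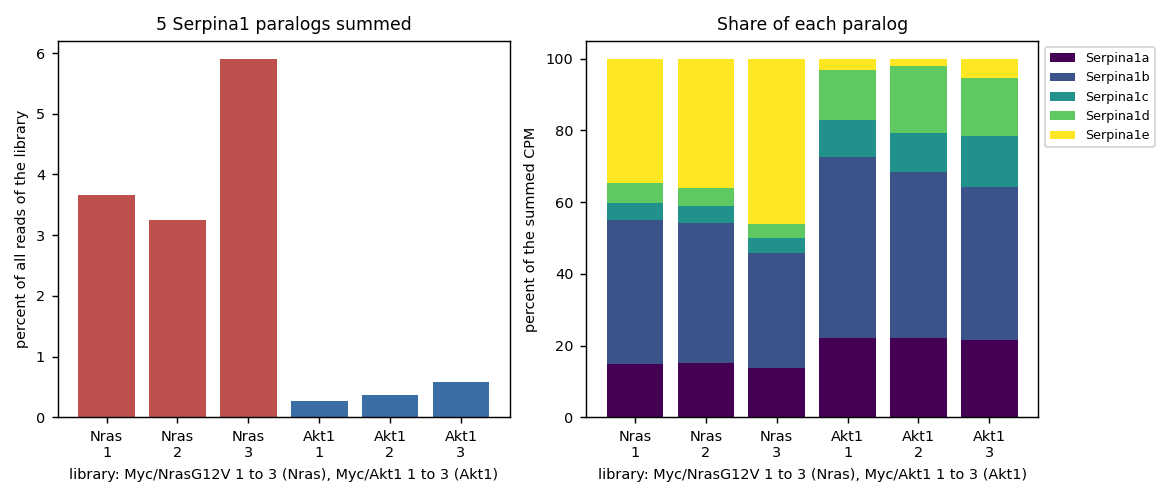
Left, the 5 Serpina1 paralogs summed, as percent of all reads of each library, and right, the share of each paralog in their summed CPM, with the 3 Myc/NrasG12V libraries to the left of the 3 Myc/Akt1 libraries. The sum took 3.26% to 5.91% of reads in Myc/NrasG12V and 0.277% to 0.590% in Myc/Akt1, and Serpina1e took 34.6% to 46.1% of that sum in Myc/NrasG12V and 2.09% to 5.41% in Myc/Akt1.

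The mouse Serpina3 genes descend from the counterpart of human SERPINA3, alpha-1-antichymotrypsin, an acute-phase inhibitor of chymotrypsin-like proteases such as cathepsin G. There are 11 members in this family, of which 7 were tested, and 6 of the 7 were called higher in Myc/NrasG12V, with 0 called the other way. Serpina3n, an acute-phase protein that in mice inhibits granzyme B and neutrophil proteases, led them (ENSMUSG00000021091, chromosome 12, 104406729 to 104414329). It had 4139, 3357 and 3169 CPM in Myc/NrasG12V libraries 1, 2 and 3, against 272, 311 and 249 CPM in Myc/Akt1 libraries 1, 2 and 3. The libraries of each group lay close together and far from the other group, and the mean was 12.8-fold higher in Myc/NrasG12V (log2 difference 3.67 ± 0.22 SE, limma adjusted p = 2.99e-05).

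Serpina3m (ENSMUSG00000079012, chromosome 12, 104338486 to 104394257), a neighbour of Serpina3n, had 1112, 1073 and 1131 CPM in Myc/NrasG12V libraries 1, 2 and 3, against 141, 209 and 179.7 CPM in Myc/Akt1 libraries 1, 2 and 3. Its Myc/NrasG12V libraries differed little from each other, and the mean was 6.25-fold higher there (log2 difference 2.66 ± 0.20 SE, limma adjusted p = 7.13e-05). Serpina3k (ENSMUSG00000058207, chromosome 12, 104338486 to 104346144), the kallikrein-binding protein of mice, was the most abundant member per kilobase in Myc/Akt1 and had 2856, 3318 and 8547 CPM in Myc/NrasG12V libraries 1, 2 and 3, against 1142, 2023 and 1827 CPM in Myc/Akt1 libraries 1, 2 and 3. Here Myc/NrasG12V library 3 stood far above the other libraries, and the 2 other Myc/NrasG12V libraries were only somewhat above Myc/Akt1. The mean was 2.95-fold higher in Myc/NrasG12V (log2 difference 1.42 ± 0.46 SE, limma adjusted p = 0.0377) but 1.86-fold higher without that library, and the call was lost with no filter on low values, without Myc/NrasG12V library 2 or on leaving out any 1 Myc/Akt1 library (adjusted p 0.0552 to 0.140). Serpina3k made up 35.2, 42.8 and 66.5% of the CPM of Serpina3k, Serpina3m and Serpina3n in Myc/NrasG12V libraries 1, 2 and 3, against 73.4, 79.5 and 81.0% in Myc/Akt1. Serpina3n made up 51.1, 43.3 and 24.7% in Myc/NrasG12V, against 17.5, 12.2 and 11.04% in Myc/Akt1. At least 90.3% of the 75-base windows of these 3 genes matched no other gene, and the exons of Serpina3k and Serpina3m overlap by 60 bases.

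The other Serpina3 genes were low. Serpina3g, known from activated T cells and blood stem cells of mice (ENSMUSG00000041481, chromosome 12, 104236245 to 104241939), had 17.5, 16.2 and 9.40 CPM in Myc/NrasG12V libraries 1, 2 and 3, against 5.05, 7.57 and 3.04 CPM in Myc/Akt1 libraries 1, 2 and 3. It was 2.75-fold higher in Myc/NrasG12V (log2 difference 1.33 ± 0.34 SE, limma adjusted p = 0.0149), and the call was lost without Myc/NrasG12V library 1 or 2 (adjusted p 0.0558 and 0.0528). T and NK cell markers summed to 9.69 to 25.8 CPM in Myc/NrasG12V and 3.14 to 6.04 CPM in Myc/Akt1, with 3 of 6 tested markers higher and 1 lower in Myc/NrasG12V, and their part in this difference was not tested. Serpina3f (ENSMUSG00000066363, chromosome 12, 104214544 to 104221129) had 6.64, 5.92 and 3.08 CPM in Myc/NrasG12V libraries 1, 2 and 3, against 0.891, 2.30 and 0.773 CPM in Myc/Akt1 libraries 1, 2 and 3, 3.95-fold higher in Myc/NrasG12V (log2 difference 1.43 ± 0.33 SE, limma adjusted p = 0.0098), or 6.27-fold without Myc/Akt1 library 2. Serpina3i was called at under 2 CPM in every library, from 65 reads in Myc/NrasG12V and 8 in Myc/Akt1, which is 9.63-fold higher by means (log2 difference 0.84 ± 0.22 SE, limma adjusted p = 0.0171), and lost the call without Myc/Akt1 library 1 or 2 (adjusted p 0.0532 and 0.0542). Serpina3i passed the filter only through its Myc/NrasG12V libraries, so its being tested depended on that difference. It is included in the counts of called members. Serpina3h, with 59 reads in Myc/NrasG12V and 19 in Myc/Akt1, was not called (log2 difference 0.62 ± 0.24 SE, limma adjusted p = 0.0664), but it was called under 5 alternatives, among them edgeR (adjusted p = 0.0361) and leaving out Myc/NrasG12V library 3 (adjusted p = 0.0176). The other 4 Serpina3 members were below the filter and not tested: Serpina3c had 36 reads in Myc/NrasG12V and 9 in Myc/Akt1, or 0.621, 0.413 and 0.783 CPM in Myc/NrasG12V libraries 1, 2 and 3, against 0.212, 0.0718 and 0.0909 CPM in Myc/Akt1 libraries 1, 2 and 3; Serpina3b had 10 and 7 reads, and Serpina3d-ps had 8 and 4 reads, in Myc/NrasG12V and Myc/Akt1. Serpina3a had 1 read in Myc/NrasG12V and 41 in Myc/Akt1.

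Serpina12 encodes vaspin, a serpin known as a secreted factor of fat tissue, skin and liver that inhibits kallikrein 7 (ENSMUSG00000041567, chromosome 12, 104028769 to 104044443). It had 149, 228 and 84.4 CPM in Myc/NrasG12V libraries 1, 2 and 3, against 11.8, 6.28 and 14.3 CPM in Myc/Akt1 libraries 1, 2 and 3. The groups were well apart, and the mean was 14.2-fold higher in Myc/NrasG12V (log2 difference 3.67 ± 0.39 SE, limma adjusted p = 2.81e-04). Serpina11, a secreted serpin of liver without a well established target (ENSMUSG00000063232, chromosome 12, 103980243 to 103989957), had 43.8, 50.2 and 45.1 CPM in Myc/NrasG12V libraries 1, 2 and 3, against 15.3, 17.6 and 28.6 CPM in Myc/Akt1 libraries 1, 2 and 3, 2.26-fold higher in Myc/NrasG12V (log2 difference 1.19 ± 0.24 SE, limma adjusted p = 0.00529). It shares exon sequence with the predicted gene Gm28577, so that 65.8% of its 75-base windows were its own.

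Clade A also held 3 genes that went the other way. Serpina5, the protein C inhibitor (ENSMUSG00000041550, chromosome 12, 104101113 to 104106137), had 0, 0.0918 and 0.112 CPM in Myc/NrasG12V libraries 1, 2 and 3, against 19.3, 7.68 and 3.82 CPM in Myc/Akt1 libraries 1, 2 and 3, from 4 reads in Myc/NrasG12V and 753 in Myc/Akt1. It was barely detected in Myc/NrasG12V and low in Myc/Akt1, with a ratio of pooled reads of 155 in favour of Myc/Akt1 (exact 95% interval 60.4 to 572, for counting error only) and a fold of means of 151, which was 84.7 without Myc/Akt1 library 1 (log2 difference -3.15 ± 0.45 SE, limma adjusted p = 0.00108, a scale on which the added 1 CPM shrinks the difference of so low a gene). Serpina5 passed the filter only through its Myc/Akt1 libraries, so its being tested depended on that difference. Serpina4-ps1, a pseudogene by annotation (ENSMUSG00000092075, chromosome 12, 104080649 to 104086724), had 0.716, 0.597 and 0.951 CPM in Myc/NrasG12V libraries 1, 2 and 3, against 17.5, 28.6 and 11.7 CPM in Myc/Akt1 libraries 1, 2 and 3, 25.5-fold higher in Myc/Akt1 (log2 difference -3.45 ± 0.32 SE, limma adjusted p = 1.61e-04). These 2 genes lie next to each other between Serpina12 and the Serpina3 genes, and the next member after them is Serpina3a, which was too low to test.

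Serpina7, thyroxine-binding globulin, which carries thyroid hormone in plasma, is the only member on the X chromosome (ENSMUSG00000031271, chromosome X, 139079257 to 139085236). It had 33.0, 49.6 and 5.76 CPM in Myc/NrasG12V libraries 1, 2 and 3, against 317, 90.1 and 121 CPM in Myc/Akt1 libraries 1, 2 and 3. The groups were apart, but Myc/NrasG12V library 3 and Myc/Akt1 library 1 lay far from the others of their group. The mean was 5.98-fold higher in Myc/Akt1 (log2 difference -2.75 ± 0.73 SE, limma adjusted p = 0.0167), 9.09-fold without Myc/NrasG12V library 2 and 3.59-fold without Myc/Akt1 library 1, and the gene was not called by edgeR (adjusted p = 0.0543), by DESeq2 (0.0564) or without Myc/Akt1 library 1 (0.0626). Serpina6, corticosteroid-binding globulin (ENSMUSG00000060807, chromosome 12, 103646630 to 103657212), had 188, 22.6 and 1.90 CPM in Myc/NrasG12V libraries 1, 2 and 3, against 120.4, 120.5 and 360.4 CPM in Myc/Akt1 libraries 1, 2 and 3. Its Myc/NrasG12V libraries spread from nearly none to a level above 2 of the Myc/Akt1 libraries, so the groups overlapped and the gene was not called (log2 difference -2.90 ± 1.25 SE, limma adjusted p = 0.0964), except without Myc/NrasG12V library 1 (log2 difference -4.40, adjusted p = 0.00718). Serpina10, the protein Z-dependent inhibitor of activated coagulation factor X (ENSMUSG00000061947, chromosome 12, 103614786 to 103631444), had 243, 295 and 62.0 CPM in Myc/NrasG12V libraries 1, 2 and 3, against 199, 221 and 226 CPM in Myc/Akt1 libraries 1, 2 and 3 and was not called (log2 difference -0.38 ± 0.50 SE, limma adjusted p = 0.577, 95% interval -1.53 to 0.76). Its sign turned without Myc/NrasG12V library 3 (0.32) and with edgeR (0.25) and DESeq2 (0.26), none of which called it. Serpina9, known from germinal centre B cells, had 15 reads in Myc/NrasG12V and 9 in Myc/Akt1 and was not tested.

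**Figure D3:**
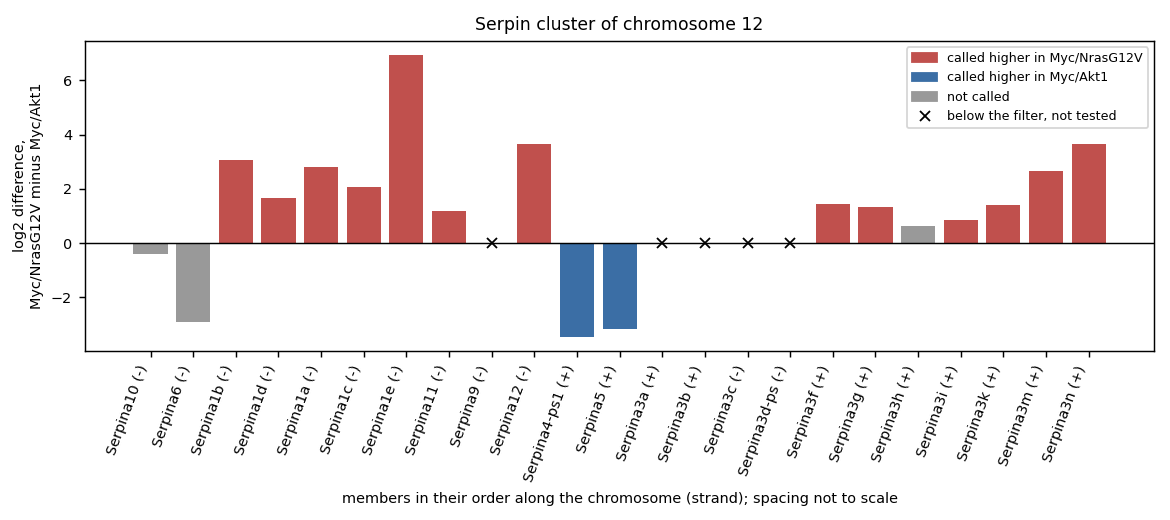
Log2 difference, Myc/NrasG12V minus Myc/Akt1, of the 23 members on chromosome 12 in their order along it, with crosses at 0 for the 5 members below the filter. Of 18 tested, 13 were called higher in Myc/NrasG12V, and the only 2 called higher in Myc/Akt1, Serpina4-ps1 and Serpina5, are neighbours.

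Position and direction can be read together on chromosome 12, where 23 members lie between 103614786 and 104414329 (GRCm38). From Serpina1b through Serpina12, all 7 tested genes were called higher in Myc/NrasG12V, and from Serpina3f through Serpina3n 6 of 7 were. Every one of the 13 clade A genes called higher in Myc/NrasG12V lies in this stretch. Serpina10 and Serpina6, at its start, were not called.

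Clade B serpins act within cells. Serpinb1a, an inhibitor of neutrophil elastase, cathepsin G and proteinase 3 (ENSMUSG00000044734, chromosome 13, 32842092 to 32851185), had 1.34, 1.61 and 2.80 CPM in Myc/NrasG12V libraries 1, 2 and 3, against 50.9, 36.2 and 119 CPM in Myc/Akt1 libraries 1, 2 and 3. It was low in all 3 Myc/NrasG12V libraries, and Myc/Akt1 library 3 was far above the other Myc/Akt1 libraries. The mean was 35.9-fold higher in Myc/Akt1 (log2 difference -4.43 ± 0.42 SE, limma adjusted p = 1.68e-04), or 22.8-fold without that library. Of 10 tested neutrophil markers, 9 were higher in Myc/NrasG12V, where 10% of all tested genes were. Several of them, such as Ngp and Retnlg, passed the filter only through that group. The marker sum was 34.2 to 208 CPM in Myc/NrasG12V and 4.04 to 4.96 CPM in Myc/Akt1. The part of neutrophils in the Serpinb1a values was not tested. Serpinb8, whose human counterpart inhibits furin (ENSMUSG00000026315, chromosome 1, 107590006 to 107610484), had 2.15, 2.94 and 0.503 CPM in Myc/NrasG12V libraries 1, 2 and 3, against 35.1, 19.6 and 21.5 CPM in Myc/Akt1 libraries 1, 2 and 3, 13.6-fold higher in Myc/Akt1 (log2 difference -3.27 ± 0.39 SE, limma adjusted p = 4.61e-04). These 2 genes lie on different chromosomes.

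Serpinb6a, a broadly expressed cytosolic inhibitor (ENSMUSG00000060147, chromosome 13, 33917918 to 34002794), was the most abundant clade B member by the mean over all 6 libraries, although below Serpinb1a in every Myc/Akt1 library, and the only one called higher in Myc/NrasG12V. It had 96.3, 62.2 and 62.9 CPM in Myc/NrasG12V libraries 1, 2 and 3, against 35.8, 27.8 and 25.8 CPM in Myc/Akt1 libraries 1, 2 and 3, 2.48-fold higher there (log2 difference 1.26 ± 0.22 SE, limma adjusted p = 0.00279). Serpinb9, an inhibitor of granzyme B that shields cells from it (ENSMUSG00000045827, chromosome 13, 33003250 to 33017957), had 9.22, 6.75 and 2.13 CPM in Myc/NrasG12V libraries 1, 2 and 3, against 8.40, 11.4 and 7.63 CPM in Myc/Akt1 libraries 1, 2 and 3. The groups overlapped and the gene was not called (log2 difference -0.68 ± 0.42 SE, limma adjusted p = 0.231, 95% interval -1.63 to 0.28). Serpinb6b was at 5.35 ± 1.83 CPM in Myc/NrasG12V and 6.996 ± 5.03 CPM in Myc/Akt1, with groups that overlapped (log2 difference -0.19 ± 0.44 SE, limma adjusted p = 0.754). Its sign differed between scalings. Serpinb2, plasminogen activator inhibitor 2, a product of stimulated macrophages, had 26 reads spread over the 3 Myc/NrasG12V libraries and 0 in Myc/Akt1, at least 10.5-fold higher when 3 reads pooled over the Myc/Akt1 group are taken as the floor. It was below the filter, and 291 of its exon bases overlap Serpinb10. Macrophage markers summed to 176 to 317 CPM in Myc/NrasG12V and 118 to 157 CPM in Myc/Akt1, with 3 of 7 higher in Myc/NrasG12V, and their part was not tested. Serpinb1c had 2 and 14 reads, and Serpinb9b 3 and 12 reads, in Myc/NrasG12V and Myc/Akt1.

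**Figure D4:**
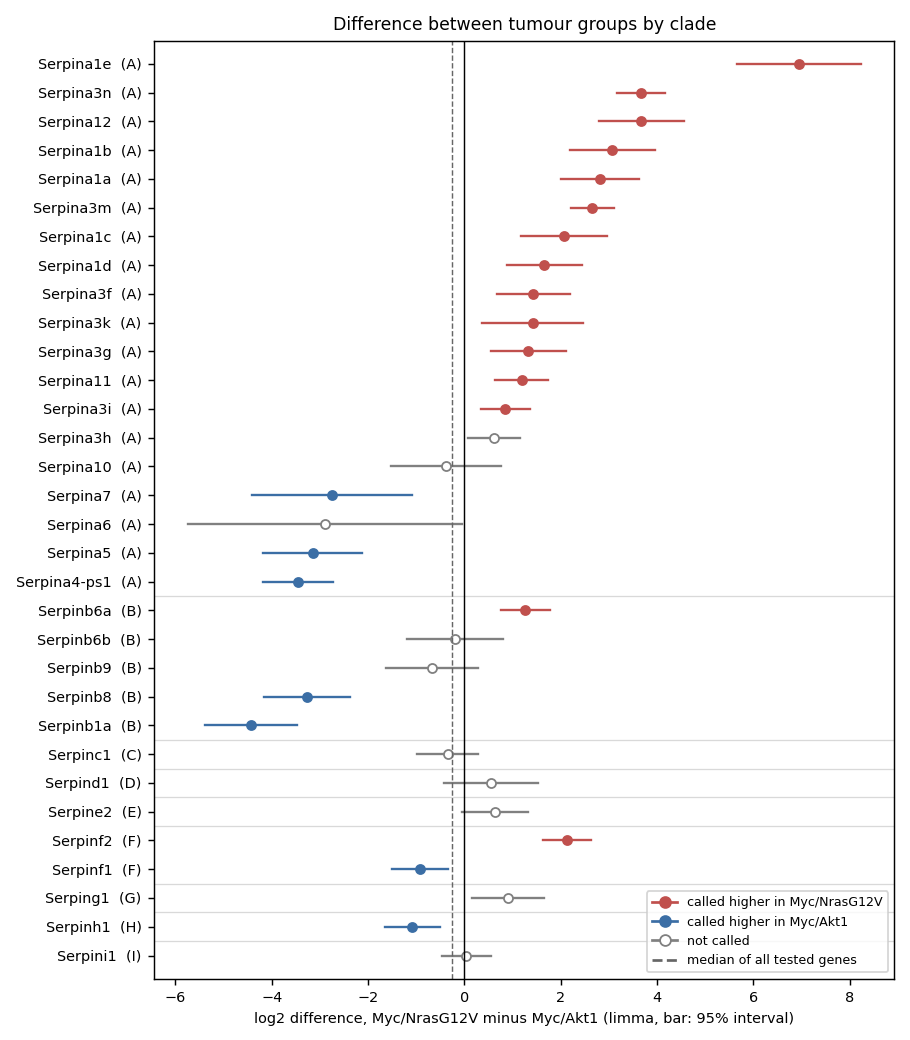
Log2 difference, Myc/NrasG12V minus Myc/Akt1, of 32 of the 33 tested members with 95% intervals, by clade, filled where called, with a dashed line at the median of all tested genes (-0.26). Clade A holds 13 of the 15 drawn members called higher in Myc/NrasG12V, and Serpina1e stands furthest from 0.

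In clade E, Serpine2, protease nexin 1, an inhibitor of thrombin and plasminogen activators at cell surfaces (ENSMUSG00000026249, chromosome 1, 79794197 to 79861180), had 3.20, 5.65 and 6.43 CPM in Myc/NrasG12V libraries 1, 2 and 3, against 3.95, 2.80 and 1.91 CPM in Myc/Akt1 libraries 1, 2 and 3 and was not called (log2 difference 0.64 ± 0.30 SE, limma adjusted p = 0.123). It was called under each of the 3 other scalings (adjusted p 0.0397 to 0.0454) and by DESeq2 (0.0165). Serpine3 had 14 reads in Myc/NrasG12V and 30 in Myc/Akt1 and was not tested.

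Serpinf2 encodes alpha-2-antiplasmin, the main inhibitor of plasmin in blood (ENSMUSG00000038224, chromosome 11, 75431732 to 75439591). It had 2261, 2158 and 1974 CPM in Myc/NrasG12V libraries 1, 2 and 3, against 398, 545 and 522 CPM in Myc/Akt1 libraries 1, 2 and 3. Libraries of each group were close together, and the mean was 4.36-fold higher in Myc/NrasG12V (log2 difference 2.13 ± 0.22 SE, limma adjusted p = 2.56e-04). Its neighbour Serpinf1, pigment epithelium-derived factor, a secreted inhibitor of blood vessel growth (ENSMUSG00000000753, chromosome 11, 75409769 to 75422701), had 424, 430.3 and 240.4 CPM in Myc/NrasG12V libraries 1, 2 and 3, against 646, 626 and 739 CPM in Myc/Akt1 libraries 1, 2 and 3. The 2 neighbours thus differed in opposite directions, with Serpinf1 1.84-fold higher in Myc/Akt1 (log2 difference -0.92 ± 0.25 SE, limma adjusted p = 0.0202). That call was lost under each of the 3 other scalings, with edgeR and DESeq2, and on leaving out any 1 Myc/Akt1 library (adjusted p 0.0525 to 0.1797).

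The plasma inhibitors Serpinc1, Serpind1 and Serping1, each the only gene of its clade, were not called. Serpinc1, antithrombin, the heparin-activated inhibitor of thrombin and factor Xa (ENSMUSG00000026715, chromosome 1, 160978585 to 161005863), had 1213, 1377 and 799.6 CPM in Myc/NrasG12V libraries 1, 2 and 3, against 1205, 1407 and 1636 CPM in Myc/Akt1 libraries 1, 2 and 3. The groups overlapped (log2 difference -0.35 ± 0.27 SE, limma adjusted p = 0.341), the 95% interval of the log2 difference being -0.98 to 0.27, and its sign was not the same under every scaling. Serpind1, heparin cofactor II, another thrombin inhibitor (ENSMUSG00000022766, chromosome 16, 17331371 to 17343575), had 821, 766 and 258 CPM in Myc/NrasG12V libraries 1, 2 and 3, against 281, 388 and 479 CPM in Myc/Akt1 libraries 1, 2 and 3. Myc/NrasG12V library 3 lay below all Myc/Akt1 libraries and the other 2 above them, and the gene was not called (log2 difference 0.55 ± 0.43 SE, limma adjusted p = 0.345). Serping1, the C1 inhibitor, which restrains complement C1r and C1s and plasma kallikrein (ENSMUSG00000023224, chromosome 2, 84765387 to 84775444), had 666, 719 and 302 CPM in Myc/NrasG12V libraries 1, 2 and 3, against 234, 297 and 322 CPM in Myc/Akt1 libraries 1, 2 and 3, again with Myc/NrasG12V library 3 among the Myc/Akt1 values, and was not called (log2 difference 0.90 ± 0.33 SE, limma adjusted p = 0.0579). Without that library both were called, Serpind1 at a log2 difference of 1.08 (adjusted p = 0.00818) and Serping1 at 1.29 (adjusted p = 0.00140). Serping1 was also called under the 3 other scalings, by edgeR (adjusted p = 0.0251) and by DESeq2 (adjusted p = 0.00185). In that same library Serpina6, Serpina7, Serpina10, Serpinb8, Serpinb9, Serpinc1, Serpind1, Serpinf1, Serpinh1 and Serpini1 were lowest of the 6. All 5 Serpina1 genes, Serpina3k, Serpina3m and Serpine2 were highest of the 6 there. The neutrophil and erythroid marker sums of that library, 208 and 1867 CPM, were also the highest of the 6, and their part in these values was not tested.

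Serpinh1, or Hsp47, is a chaperone of the endoplasmic reticulum that binds newly made collagen and inhibits no protease (ENSMUSG00000070436, chromosome 7, 99345376 to 99353239). It had 18.6, 26.4 and 13.0 CPM in Myc/NrasG12V libraries 1, 2 and 3, against 38.8, 40.8 and 41.9 CPM in Myc/Akt1 libraries 1, 2 and 3. The Myc/Akt1 libraries lay within a narrow range above all Myc/NrasG12V libraries, 2.09-fold higher by means (log2 difference -1.08 ± 0.25 SE, limma adjusted p = 0.00944). The call was lost under each of the 3 other scalings, with edgeR and with DESeq2 (adjusted p 0.0605 to 0.0752). Stellate and mural cell markers summed to 323 to 363 CPM in Myc/NrasG12V and 144 to 199 CPM in Myc/Akt1, with 2 of 7 higher in Myc/NrasG12V, and their part was not tested. Serpini1, neuroserpin, an inhibitor of tPA in the nervous system (ENSMUSG00000027834, chromosome 3, 75557547 to 75643495), was near 1 CPM throughout, at 1.28 ± 0.470 CPM in Myc/NrasG12V and 1.20 ± 0.326 CPM in Myc/Akt1 (log2 difference 0.04 ± 0.22 SE, limma adjusted p = 0.909, 95% interval -0.47 to 0.55).

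Levels per kilobase of annotated exon place the members beside each other. In Myc/NrasG12V, Serpina1e was followed by Serpina1b at 6390.5, Serpina1a at 3377, Serpina3k at 2386 and Serpina3n at 1722 CPM per kilobase. In Myc/Akt1 the highest members were Serpina3k at 809, Serpina1b at 773, Serpina1a at 488, Serpina1d at 479 and Serpina1c at 371 CPM per kilobase. Serpinf2 and Serpinf1 stood at 917 and 155 CPM per kilobase in Myc/NrasG12V, and at 210.1 and 284 in Myc/Akt1, so their order differed between the groups. These orders rest on group means, and neighbours in them were not tested against each other.

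The proteases that serpins inhibit, and the other genes of their pathways, were counted in lists. Of 18 tested plasma serine proteases, 6 were higher in Myc/NrasG12V, and Plau alone was higher in Myc/Akt1. Hgfac, the activator of hepatocyte growth factor, had 772, 623 and 788 CPM in Myc/NrasG12V, against 100.2, 145 and 155 CPM in Myc/Akt1 (5.45-fold, log2 difference 2.45 ± 0.21 SE, limma adjusted p = 1.37e-04). F11, coagulation factor XI, had 184, 203 and 137 CPM in Myc/NrasG12V, against 17.6, 33.4 and 41.7 CPM in Myc/Akt1 (5.66-fold, log2 difference 2.53 ± 0.31 SE, limma adjusted p = 5.02e-04). Plat, the plasminogen activator tPA, had 25.7, 23.2 and 67.0 CPM in Myc/NrasG12V, against 6.11, 6.10 and 3.50 CPM in Myc/Akt1 (7.38-fold, log2 difference 2.53 ± 0.40 SE, limma adjusted p = 0.00168). Plg, the plasminogen whose active form Serpinf2 inhibits, was also higher there (1.91-fold, log2 difference 0.93 ± 0.28 SE, limma adjusted p = 0.0278). The median of this list was 0.25, against -0.26 over all tested genes.

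Among 12 genes of plasminogen activation and serpin clearance, 3 were higher in Myc/NrasG12V, with 4 higher in Myc/Akt1 and a median of -0.12. Over all tested genes the shares were 10% and 29.5%, so the count toward Myc/Akt1 is near that of all genes. Plaur, the uPA receptor, had 14.1, 11.3 and 19.5 CPM in Myc/NrasG12V, against 4.24, 2.76 and 2.73 CPM in Myc/Akt1 (4.62-fold, log2 difference 1.90 ± 0.27 SE, limma adjusted p = 0.00103). S100a10, which binds plasminogen at the cell surface, had 27.9, 55.5 and 45.7 CPM in Myc/NrasG12V, against 233, 164 and 183 CPM in Myc/Akt1 and was 4.49-fold higher in Myc/Akt1 (log2 difference -2.18 ± 0.26 SE, limma adjusted p = 4.82e-04). Plau, which encodes uPA, was 2.99-fold higher in Myc/Akt1 (log2 difference -1.24 ± 0.27 SE, limma adjusted p = 0.00684), opposite to Plat. The leukocyte granule proteases include some targets of human alpha-1-antitrypsin and of Serpina3n, Serpinb1a and Serpinb9. Which mouse Serpina1 paralogs inhibit them was not examined, and not every gene of the list is such a target. Of its 10 genes, 5 could be tested and 3 were higher in Myc/NrasG12V, with 0 higher in Myc/Akt1. Prtn3, proteinase 3, had 21.6, 20.2 and 13.2 CPM in Myc/NrasG12V, against 1.32, 0.754 and 1.41 CPM in Myc/Akt1 (15.8-fold, log2 difference 3.15 ± 0.27 SE, limma adjusted p = 1.23e-04). Gzmb, granzyme B, had 3.63, 2.30 and 2.74 CPM in Myc/NrasG12V, against 0.552, 0.467 and 0.182 CPM in Myc/Akt1 (log2 difference 1.47 ± 0.21 SE, limma adjusted p = 0.00118), and Gzmk, granzyme K, had 5.11, 1.93 and 1.90 CPM in Myc/NrasG12V, against 0.0848, 0.0359 and 0 CPM in Myc/Akt1 (log2 difference 1.84 ± 0.29 SE, limma adjusted p = 0.00175). Gzmk passed the filter only through its Myc/NrasG12V libraries. Prtn3, Gzmb and Gzmk are known as genes of blood cells, whose neutrophil and T cell marker sums are given above. Among the Myc/NrasG12V libraries, Prtn3 was lowest in library 3, where the neutrophil marker sum was highest. Which cells held these transcripts was not tested. Erythroid markers summed to 299.8 to 1867 CPM in Myc/NrasG12V and 49.0 to 101 CPM in Myc/Akt1, with 6 of 7 higher in Myc/NrasG12V.

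The other secreted protease inhibitors shared the direction of many serpins, with 9 of 17 higher in Myc/NrasG12V, 1 higher in Myc/Akt1 and a median log2 difference of 1.08. A2m, alpha-2-macroglobulin, which traps proteases of all classes, had 398, 451 and 323 CPM in Myc/NrasG12V, against 0.552, 1.87 and 0.4999 CPM in Myc/Akt1 (401-fold, log2 difference 7.69 ± 0.28 SE, limma adjusted p = 3.46e-06). Timp1, an inhibitor of matrix metalloproteases, had 11.8, 14.1 and 14.5 CPM in Myc/NrasG12V, against 1.65, 0.825 and 1.27 CPM in Myc/Akt1 (10.8-fold, log2 difference 2.70 ± 0.23 SE, limma adjusted p = 1.35e-04). Itih3, a chain of the inter-alpha-trypsin inhibitor, had 3533, 3664 and 3377 CPM in Myc/NrasG12V, against 1134, 1071 and 774 CPM in Myc/Akt1 (3.55-fold, log2 difference 1.85 ± 0.26 SE, limma adjusted p = 9.83e-04). Tfpi2, an inhibitor of plasmin and other trypsin-like proteases, was the gene that was higher in Myc/Akt1 (8.59-fold, log2 difference -3.31 ± 0.52 SE, limma adjusted p = 0.00167).

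Of 17 collagen and collagen-modifying genes, 3 were higher in Myc/NrasG12V, where 10% of all tested genes were. There were 2 that were higher in Myc/Akt1, where 29.5% of all tested genes were. These were Col4a1, at 168, 188 and 175 CPM in Myc/NrasG12V, against 446, 469.5 and 332 CPM in Myc/Akt1 (log2 difference -1.21 ± 0.19 SE, limma adjusted p = 0.00144), and Col4a2, at 106, 96.6 and 119.5 CPM in Myc/NrasG12V, against 193, 182 and 142 CPM in Myc/Akt1 (log2 difference -0.67 ± 0.18 SE, limma adjusted p = 0.0174), the chains of basement membrane collagen IV, and the fibrillar collagen genes Col1a1, Col1a2 and Col3a1 were not called. The Col4a2 call was lost under the 3 other scalings, with edgeR and DESeq2, and without Myc/NrasG12V library 1 or 2 or Myc/Akt1 library 1 or 2 (adjusted p 0.0551 to 0.181). Plod3, a lysyl hydroxylase of collagen, had 42.6, 44.1 and 43.3 CPM in Myc/NrasG12V, against 27.2, 32.2 and 26.5 CPM in Myc/Akt1 (log2 difference 0.59 ± 0.16 SE, limma adjusted p = 0.0204), a call lost without Myc/NrasG12V library 1 or 2 or Myc/Akt1 library 1 (adjusted p 0.0599 to 0.0846). Of 14 liver transcription factors, 2 were higher in each group, beside the same shares of all tested genes. Foxa3 had 62.7, 79.4 and 84.3 CPM in Myc/NrasG12V, against 15.5, 21.1 and 31.3 CPM in Myc/Akt1 (3.34-fold, log2 difference 1.74 ± 0.26 SE, limma adjusted p = 0.00126), and Cebpd, a C/EBP factor of the acute-phase response, had 7.97, 5.74 and 9.73 CPM in Myc/NrasG12V, against 1.36, 1.72 and 4.45 CPM in Myc/Akt1 (3.11-fold, log2 difference 1.40 ± 0.35 SE, limma adjusted p = 0.0131), a call lost without Myc/Akt1 library 1 or 2. Nr5a2 had 20.9, 26.0 and 21.3 CPM in Myc/NrasG12V, against 45.1, 60.4 and 28.7 CPM in Myc/Akt1 and was 1.97-fold higher in Myc/Akt1 (log2 difference -0.89 ± 0.27 SE, limma adjusted p = 0.0284), a call lost under the 3 other scalings, with edgeR and DESeq2, and without Myc/NrasG12V library 1 or Myc/Akt1 library 1 or 2 (adjusted p 0.0825 to 0.158). Hnf4a, at 624, 576 and 683 CPM in Myc/NrasG12V, against 634, 704 and 465 CPM in Myc/Akt1, was not called (log2 difference 0.08 ± 0.22 SE, limma adjusted p = 0.792).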

How the data were processed

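Poly(A) stranded, single-end RNA-seq of 6 tumour samples had been deposited as 1 table per library. The value column is named reads, but the deposited values are CPM. Per the submitters' processing notes, the authors used STAR 2.6.1c, Subread 1.6.3, edgeR 3.22.5 and GRCm38. The annotation release, the strandedness used in counting and the treatment of reads with several matches are not given in the sources used here, so reads of overlapping or near-identical genes may be split in ways that could not be examined.

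Every CPM value was a whole number of reads once divided by the smallest value above 0 in its file (100% to within 0.01 read), so reads were recovered. Of 39179 gene identifiers, 37693 matched GENCODE M21, the source of coordinates and exon lengths, and all 42 members did. Genes with at least 0.457 CPM in 3 libraries and 15 reads in total were tested, 14365 in all, with limma 3.58.1 (eBayes with a trend, two-sided) in R 4.3.3 on log2(CPM + 1), adjusted by Benjamini-Hochberg. A gene could pass this filter through the group where it was higher alone, as Serpina3i and Serpina5 did. Because the files hold CPM, edgeR 4.0.16 and DESeq2 1.42.0 on the recovered reads served as alternatives. edgeR called 18 members higher in Myc/NrasG12V, where it called 16.6% of all tested genes, and 4 members higher in Myc/Akt1, where it called 17.5%. Folds are ratios of group mean CPM, and the added 1 CPM makes log2 differences of low genes smaller than their folds. Tested alone by exact permutation, 3 against 3 libraries could not reach a p under 0.1.

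The members, the lists and the rule for named genes were chosen with earlier results of these data known. The rule took every member by name or count, per-library values of called members with a group mean of at least 5 CPM and of the most abundant member of each clade, a fixed set of liver, coagulation and immune serpins, and the 3 genes of lowest adjusted p of each pathway list. Tfpi2, Plg, Plau, Hnf4a and Alb were named besides, after their values were seen. The values of 1 member, which is included in the counts, are not reported here. The procedure was also run on simulated data that gave every gene the same spread beyond counting error and changed few genes. That setting is simpler than these data, so it does not test the calls made here. Alternatives were 3 scalings (TMM, median of ratios, upper quartile), 2 filters, 2 pseudocounts, edgeR, DESeq2, a block for the replicate number, and 6 fits that each left out 1 library.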

Additional observations from a re-analysis of the deposited data

How the results depend on the processing

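Over the 16 alternatives, 14 to 19 members were called higher in Myc/NrasG12V (16 as reported) and 4 to 8 higher in Myc/Akt1 (7 as reported), and 0 calls reversed. The count higher in Myc/Akt1 was 4 with edgeR and 4 with DESeq2; 20 calls were shared by limma and edgeR in the same direction. Leaving out each library in turn gave 14 to 19 and 5 to 8. Of the 23 called members, 17 kept the call in every alternative that tested them and 6 lost it at least once (Serpina3g, Serpina3i, Serpina3k, Serpina7, Serpinf1 and Serpinh1); of the 10 not called, 5 gained a call at least once (Serpina3h, Serpina6, Serpind1, Serpine2 and Serping1). Serpina10, Serpinb6b, Serpinc1 and Serpini1 changed sign without being called. With a replicate block the counts were 16 and 7. Samples of the same number correlated at -0.08, 0.11 and 0.08 in their deviations from the group means. With 3 samples per group, these values cannot settle whether the numbers pair them. Over the same alternatives the members of the pathway lists called higher in Myc/NrasG12V numbered 3 to 9 for plasma serine proteases, 3 to 4 for leukocyte granule proteases, 2 to 4 for plasminogen activation and clearance, 0 to 3 for collagen genes, 1 to 3 for liver transcription factors and 7 to 13 for other secreted inhibitors, and those called higher in Myc/Akt1 numbered 1 to 2, 0 to 0, 2 to 4, 1 to 3, 0 to 2 and 1 to 1 in that order. The cause of these changes was not tested. Members below the filter, given above as not tested, had at most 45 reads each over the 6 libraries, and why their counts were low was not tested. The alternative with no filter did test all 42 members, with 17 called toward Myc/NrasG12V and 8 toward Myc/Akt1. Since Serpina3k lost its call there, both counts include members below the filter, whose names are not reported here.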
